A study of Mus musculus with 14 samples.

Results

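NRF2 (gene Nfe2l2) is the transcription factor that switches on antioxidant and detoxification genes. In resting cells KEAP1 (Keap1) marks NRF2 for degradation, and oxidants or electrophiles that modify KEAP1 let NRF2 enter the nucleus, where it binds antioxidant response elements together with small MAF proteins. BACH1 (Bach1) competes for the same elements and represses them. In macrophages these genes supply glutathione, recycle thioredoxin and degrade haem. The 10 NRF2 target genes described here were selected by name as Hmox1, Nqo1, Gclm, Gclc, Slc7a11, Txnrd1, Srxn1, Gsr, Prdx1 and Me1, out of 55414 genes in the deposited table. All 10 were found and all 10 passed the filter on low counts, which 12851 genes passed. The question was whether supernatant of ferroptotic cells raised these genes in macrophages.

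Primary bone marrow-derived macrophages (pBMDMs) of C57BL/6N mice, 6 to 9 weeks old, were kept in M-CSF. For 24 h they received filtered supernatant from Pfa1 cells, a line of mouse embryonic fibroblasts (MEFs). In Pfa1 cells 4-hydroxytamoxifen (4OHT) activates a Cre recombinase that deletes Gpx4, and loss of GPX4 leads to death by ferroptosis. The groups were supernatant of untreated MEFs (ctrl), of MEFs given 1 μM 4OHT (4OHT, the ferroptotic supernatant), of MEFs given 4OHT and 1 μM Ferrostatin-1, which blocks ferroptosis (4OHT+Fer1), of MEFs given only Ferrostatin-1 (Fer1), and fresh medium never conditioned by MEFs (medium). Each supernatant has 3 replicates and medium has 2. Pfa1 is a single cell line, and Gpx4 was deleted in the MEFs and not in the macrophages, so the macrophage counts hold no check of the deletion. 4OHT and Ferrostatin-1 may have been carried over with the supernatants, and no measurement of this is given. Any action of theirs on macrophages cannot be told apart from that of the factors the MEFs released.

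Reads came from 3′ ends of transcripts (QuantSeq), and the 14 libraries held between 7823051 and 11052352 counts. Levels are given as CPM, counts scaled to library size with TMM factors. Because 3′ counts do not grow with transcript length, CPM is compared between genes without a correction for length. Other differences between genes in how reads were captured or assigned were not tested. The smallest amount told from none, 3 counts, corresponded to between 0.272 and 0.381 CPM, a limit that covers counting error only. All 8 macrophage markers were present in every library, with a summed level from 18862.8 to 43877.7 CPM. The lowest 4OHT library (28021.1 CPM) lay above the highest ctrl library (27761.0 CPM). Most of the sum was Lyz2, with 36193.0, 22329.0 and 20471.0 CPM in 4OHT and 22647.0, 13967.0 and 18868.0 CPM in ctrl. The Lyz2 libraries of both groups overlapped. Csf1r had 4544.2, 3634.2 and 4708.4 CPM in 4OHT and 2243.9, 2263.3 and 1670.9 CPM in ctrl. Of the 8 markers, 5 had a positive difference of 4OHT from ctrl, and 0 passed an adjusted p of 0.05 by edgeR. At an unadjusted p of 0.05 by edgeR 4 passed, against 10.8% of all genes. Itgam, Fcgr1 and Cd14 had lower means in 4OHT than in ctrl. The part of this shift of the sum in the members' levels was not tested. The 12 fibroblast markers summed to between 26.2 and 196.2 CPM, and Thy1 and Lum had at most 3 counts in every library. In bulk samples fewer cells of a type and less RNA per cell cannot be told apart.

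The core antioxidant response element, TGACNNNGC on either strand, is shown for the members in whose promoter it was found, because NRF2 acts through this element. RefSeq promoters (GRCm38.p6, 250 bases before to 50 bases after the start that each promoter entry uses) were at hand for 7 members, and 5 of these held the core element in at least 1 promoter, against 3781 of all 27025 genes in the table. By promoter it was in 5 of 10 of the members, against 12.4% of all 32851 of that length. Capitals mark the element, and each sequence is written in the direction of its gene.
Gclm, chr3:122245403-122245451, + strand: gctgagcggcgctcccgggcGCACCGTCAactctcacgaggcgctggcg
Txnrd1, chr10:82859094-82859142, + strand: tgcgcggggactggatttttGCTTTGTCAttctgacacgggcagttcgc
Srxn1, chr2:152105532-152105573, + strand: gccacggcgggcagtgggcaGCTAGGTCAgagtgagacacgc
Prdx1, chr4:116685446-116685494, + strand: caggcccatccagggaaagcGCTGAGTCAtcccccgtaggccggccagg
Me1, chr9:86695892-86695940, − strand: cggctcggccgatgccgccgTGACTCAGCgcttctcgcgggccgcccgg
In Gclm, Txnrd1, Srxn1 and Prdx1 the element lay on the other strand, and in Me1 on the strand of the gene. The start that a promoter entry uses is not always the start of the annotated gene, and in Txnrd1, Srxn1 and Me1 the element lay inside the gene span given below. These letters were not in the windows of Nqo1 and Slc7a11. Txnrd1 has 3 promoters in the table and Me1 has 2, of which 1 each held the element.

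None of the 10 genes passed the test in pBMDMs exposed to ferroptotic (4OHT) supernatant compared with ctrl supernatant. By edgeR (quasi-likelihood, Benjamini-Hochberg adjusted) 0 of 10 passed an adjusted p of 0.05, against 1.49% of all genes tested, and the members' adjusted p-values lay between 0.59 and 0.933. At an unadjusted p of 0.05, 0 members passed, against 10.8% of all genes, and DESeq2 also called 0, against 3.25% of all genes. In none of the 10 did all 4OHT libraries lie on one side of all ctrl libraries, a separation seen in 11.0% of all genes. The log2 fold changes ran from −0.38 (Me1) to 0.90 (Nqo1) with a median of 0.14, beside 0.006 over all genes. They were positive in 6 of 10 members and in 50.8% of all genes. For 8 of 10 members the 95% interval lay within a doubling or halving, which held for 63.6% of all genes. The intervals of Nqo1 and Slc7a11 were wider and reached 2.00 and 1.32.

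Compared with the rescued (4OHT+Fer1) supernatant, 1 of 10 members passed and it was higher in 4OHT: Gsr, at a log2 fold change of 1.47 (SE 0.31, a 2.76-fold difference, adjusted p = 0.0411 by edgeR). The share of all genes that passed was 1.35%. Nqo1 (1.82, SE 0.53, adjusted p = 0.155) and Slc7a11 (1.23, SE 0.36, adjusted p = 0.158) had the other large differences in edgeR's test and did not pass. At an unadjusted p of 0.05 these 3 genes passed, against 11.8% of all genes, and DESeq2 called Gsr and Nqo1, against 3.10% of all genes. The 4OHT and 4OHT+Fer1 libraries did not overlap for 2 members, Gsr and Nqo1, against 10.2% of all genes. The median of the 10 was 0.18, beside 0.005 over all genes, and 8 of 10 were positive, where 50.6% of all genes were. Both comparisons use the same 4OHT libraries.

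The Gsr call did not hold in every fit. Without the replicate number in the model its adjusted p was 0.223 at a log2 fold change of 1.46, and in a fit of only both groups it was 0.101. Leaving out any library of either group except replicate 3 of 4OHT also ended the call, with adjusted p-values between 0.0887 and 0.207. The call was lost as well when replicate 1 or replicate 2 of every group was left out, at log2 fold changes of 1.54 and 1.07. The summed fibroblast markers lay between 27.5 and 82.9 CPM in 4OHT and between 26.2 and 167.0 CPM in 4OHT+Fer1, and Col1a1, a collagen gene of fibroblasts, was lower in 4OHT at −1.14 (SE 0.25, adjusted p = 0.0456 by edgeR). That call was lost without the replicate number (adjusted p = 0.716), with only both groups fitted (0.14) and with any replicate or library left out (0.0692 to 0.622). The part of fibroblast RNA in the result was not tested.

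**Figure D1:**
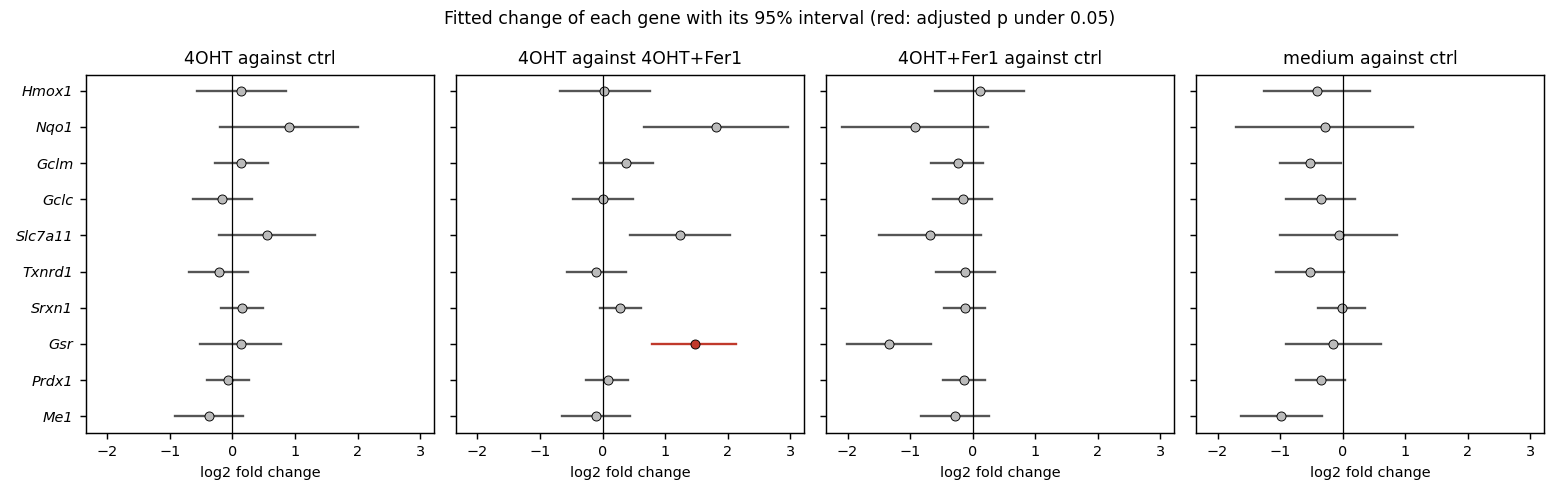
Fitted log2 fold change (x axis) of each of the 10 genes (rows) in 4 comparisons, with lines for 95% intervals from edgeR's model over all 14 samples. Gsr in 4OHT against 4OHT+Fer1, at 1.47, is the only red point, the mark of an adjusted p under 0.05, and the intervals of all 10 genes in 4OHT against ctrl include 0.

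Glutathione is made by glutamate-cysteine ligase, whose catalytic subunit is Gclc and whose modifier subunit is Gclm. Gclc (GRCm38 chr9:77754535-77794485, + strand) had 40.6, 42.8 and 84.1 CPM in ctrl and 37.8, 39.5 and 71.6 CPM in 4OHT, in the order of replicates 1 to 3. It had 49.4, 40.7 and 51.4 CPM in 4OHT+Fer1, 42.2, 50.8 and 52.9 CPM in Fer1, and 28.8 and 44.7 CPM in medium. The groups overlapped, and 4OHT was below ctrl in each replicate by a small amount. The fitted difference of 4OHT from ctrl was −0.16 (SE 0.22, 95% interval −0.63 to 0.31), and that from 4OHT+Fer1 was 0.01 (SE 0.22).

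Gclm (chr3:122245557-122270732, + strand) had 122.9, 135.3 and 303.0 CPM in ctrl and 135.1, 134.5 and 362.3 CPM in 4OHT. It had 113.1, 118.7 and 224.7 CPM in 4OHT+Fer1, 120.1, 155.8 and 255.2 CPM in Fer1, and 63.1 and 126.6 CPM in medium. Replicate 3 was the highest library of every supernatant, between 224.7 and 362.3 CPM, while replicates 1 and 2 lay between 113.1 and 155.8 CPM. The fitted difference of 4OHT from ctrl was 0.14 (SE 0.19, interval −0.28 to 0.56), and from 4OHT+Fer1 it was 0.38 (SE 0.19, adjusted p = 0.477 by edgeR), higher in 3 of 3 replicates. Gclm overlaps 2 genes of the annotation, Gm17494 on the opposite strand and Gm6061 on its own, so a share of its counts could belong to Gm6061.

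Slc7a11 (chr3:49892526-50443614, − strand) imports cystine, the source of the cysteine in glutathione, and was among the least abundant members. It had 2.53, 1.61 and 4.64 CPM in ctrl, 2.42, 3.26 and 7.85 CPM in 4OHT and 0.837, 1.70 and 3.07 CPM in 4OHT+Fer1. It had 1.79, 2.29 and 2.42 CPM in Fer1 and 1.78 and 2.34 CPM in medium. Each 4OHT library was above the 4OHT+Fer1 library of the same replicate, by 1.33, 0.86 and 1.29 on the log2 CPM scale, while the groups as a whole overlapped. Against ctrl the same differences were −0.06, 0.93 and 0.73, with a fitted value of 0.55 (SE 0.35, interval −0.21 to 1.32). It had between 8 and 62 counts a library. Its annotated span also holds 5 other genes, 2 of them on its own strand.

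Gsr (chr8:33652523-33698163, + strand) is glutathione reductase, which returns oxidised glutathione to its reduced form with NADPH. It had 7.70, 14.8 and 25.2 CPM in ctrl, 11.8, 24.6 and 12.9 CPM in 4OHT and 4.71, 5.52 and 7.68 CPM in 4OHT+Fer1. It had 9.52, 12.2 and 12.7 CPM in Fer1 and 9.78 and 14.9 CPM in medium. The 4OHT+Fer1 libraries were the 3 lowest of the 14, with the highest of them, 7.68 CPM, just under the lowest ctrl library, while the 4OHT libraries lay within the range of ctrl. The difference of 4OHT from 4OHT+Fer1 was 1.29, 2.11 and 0.73 in the 3 replicates, and that of 4OHT from ctrl was 0.60, 0.73 and −0.95. 4OHT and ctrl differed by a fitted log2 fold change of 0.13 (SE 0.30, interval −0.52 to 0.78), and without replicate 3 by 0.67 (adjusted p = 0.27 by edgeR). 4OHT+Fer1 against ctrl gave −1.33 (SE 0.31, unadjusted p = 0.001, adjusted p = 0.818 by edgeR), lower in 3 of 3 replicates. The Gsr span also holds a small nucleolar RNA gene, Gm24727, on its own strand.

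Thioredoxin and peroxiredoxin enzymes reduce peroxides and disulfides alongside glutathione. Txnrd1 (chr10:82833951-82897712, + strand), the reductase that recycles thioredoxin, had 147.3, 151.1 and 204.5 CPM in ctrl and 106.4, 118.0 and 216.8 CPM in 4OHT. It had 160.6, 142.5 and 150.8 CPM in 4OHT+Fer1, 138.0, 172.9 and 148.8 CPM in Fer1, and 85.5 and 129.1 CPM in medium. In 4OHT, replicates 1 and 2 lay below all ctrl libraries and replicate 3 above them. The fitted difference from ctrl was −0.22 (SE 0.22, interval −0.69 to 0.25). Txnrd1 overlaps the coding gene Eid3 on its own strand, and its estimated counts were not whole in 3 libraries.

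Srxn1 (chr2:152105516-152111376, + strand), sulfiredoxin, restores overoxidised peroxiredoxins. It had 90.3, 82.0 and 123.5 CPM in ctrl, 96.6, 78.6 and 160.7 CPM in 4OHT and 78.6, 82.5 and 107.0 CPM in 4OHT+Fer1. It had 82.0, 89.8 and 113.5 CPM in Fer1 and 79.0 and 89.2 CPM in medium. Replicate 3 was again the highest in every supernatant, and the groups overlapped. 4OHT differed from ctrl by 0.15 (SE 0.15, interval −0.18 to 0.48) and from 4OHT+Fer1 by 0.28 (SE 0.15, adjusted p = 0.514 by edgeR).

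Prdx1 (chr4:116685544-116700822, + strand), a peroxiredoxin that reduces hydrogen peroxide, was by far the most abundant of the 10. It had 2312.2, 2282.8 and 2027.2 CPM in ctrl, 2387.0, 2163.6 and 1778.4 CPM in 4OHT and 1904.7, 1760.8 and 2306.4 CPM in 4OHT+Fer1. It had 2245.6, 2423.8 and 2244.5 CPM in Fer1 and 1785.5 and 1720.1 CPM in medium. Unlike the other members, Prdx1 was not highest in a replicate 3 library. It had at least 14053 counts in every library, and its difference of 4OHT from ctrl was −0.07 (SE 0.15, interval −0.40 to 0.27).

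Hmox1 (chr8:75093621-75100589, + strand), haem oxygenase 1, degrades haem and releases iron, biliverdin and carbon monoxide. It had 7.29, 6.63 and 10.3 CPM in ctrl, 6.22, 5.98 and 15.6 CPM in 4OHT and 10.7, 7.43 and 7.27 CPM in 4OHT+Fer1. It had 9.13, 9.70 and 8.37 CPM in Fer1 and 4.70 and 6.12 CPM in medium. In 4OHT, replicate 3 was the highest of all 14 libraries while replicates 1 and 2 were below every ctrl library. The fitted difference from ctrl was 0.14 (SE 0.33, interval −0.57 to 0.86), and without replicate 3 of 4OHT its sign turned, to −0.38.

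Nqo1 (chr8:107388225-107403206, − strand) reduces quinones and is widely used as a readout of NRF2. It had 1.22, 1.61 and 9.28 CPM in ctrl, 4.74, 5.35 and 6.33 CPM in 4OHT and 0.523, 1.49 and 3.69 CPM in 4OHT+Fer1. It had 2.28, 2.71 and 4.63 CPM in Fer1 and 2.54 and 1.00 CPM in medium. All 4OHT libraries were above all libraries of 4OHT+Fer1, Fer1 and medium, but below replicate 3 of ctrl. The margin over Fer1 was small, with 45 counts (4.74 CPM) in replicate 1 of 4OHT and 42 counts (4.63 CPM) in replicate 3 of Fer1. The 4OHT and 4OHT+Fer1 libraries did not overlap in 10.2% of all genes, and this share was not computed for Fer1 and medium. Against ctrl the difference was 1.79 and 1.61 in replicates 1 and 2 and −0.54 in replicate 3, on the log2 CPM scale, with a fitted value of 0.90 (SE 0.50, adjusted p = 0.59 by edgeR). Without replicate 3 the fitted value was 1.82 (adjusted p = 0.134), and without replicate 3 of ctrl alone it was 1.63 (adjusted p = 0.181). The counts were small, between 5 and 84 a library.

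Me1 (chr9:86581371-86695953, − strand), malic enzyme, makes NADPH in the cytosol. It had 10.2, 11.9 and 11.4 CPM in ctrl, 5.90, 7.71 and 12.7 CPM in 4OHT and 9.52, 8.92 and 9.11 CPM in 4OHT+Fer1. It had 11.4, 9.80 and 10.2 CPM in Fer1 and 6.22 and 4.56 CPM in medium. Both medium libraries and replicates 1 and 2 of 4OHT lay below all ctrl libraries, and replicate 3 of 4OHT lay above them. The fitted difference of 4OHT from ctrl was −0.38 (SE 0.25, interval −0.92 to 0.16). Estimated counts of Me1 were not whole in 6 libraries, and it overlaps a further gene on each strand.

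**Figure D2:**
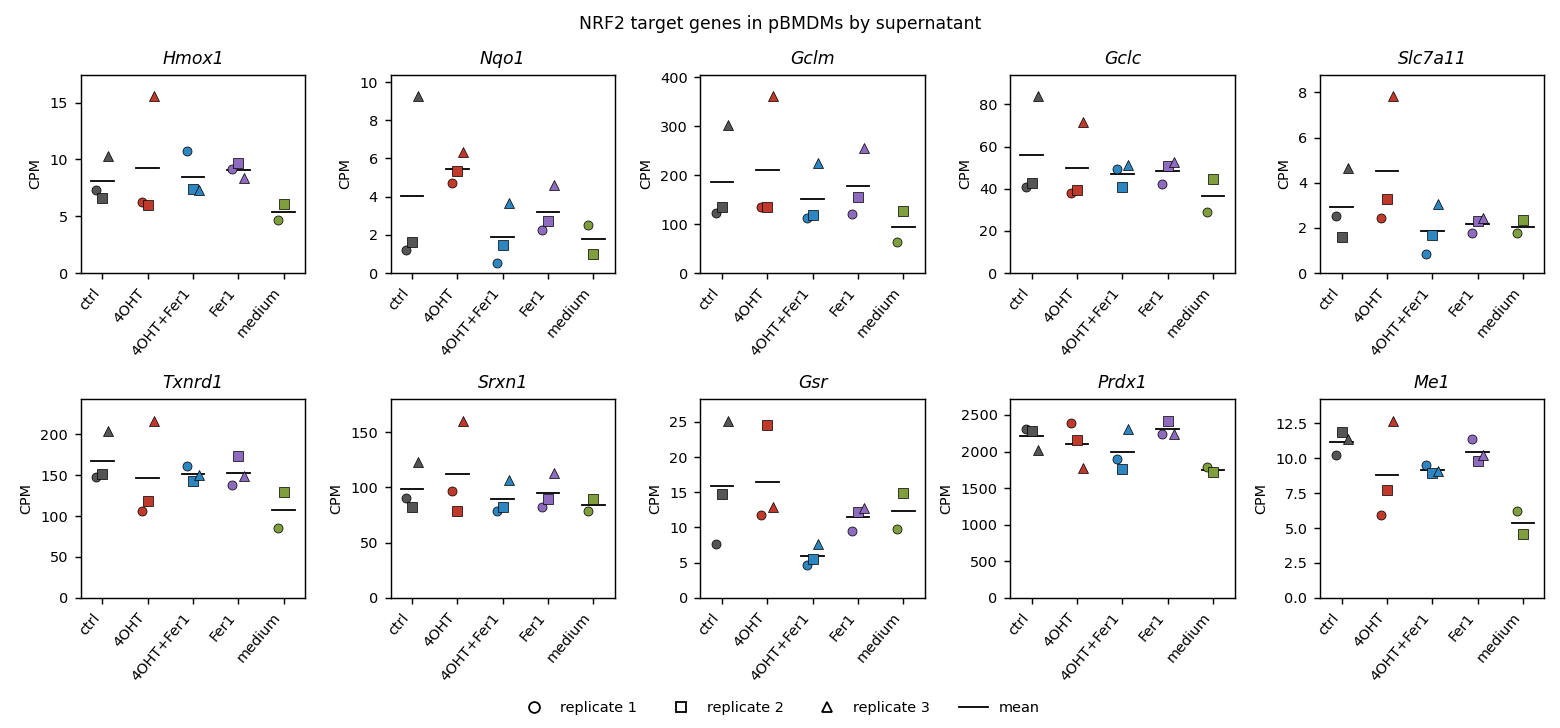
Level in CPM (y axis, from 0) of each gene in every library by group (x axis), with circles, squares and triangles for replicates 1, 2 and 3 and a bar for the mean. Triangles stand highest in 9 of the 10 panels, as in Gclm at 362.3 CPM in 4OHT, and the 3 Gsr libraries of 4OHT+Fer1 lie between 4.71 and 7.68 CPM.

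The replicate number, taken here to be the mouse, went with a larger part of the spread than the supernatant did for most members. Over the 12 supernatant libraries it accounted for 90.0% of the spread of log2 CPM in Gclm, 75.0% in Srxn1 and 63.0% in Gclc, while the supernatant accounted for 5.72%, 10.5% and 3.72%. The share of the replicate number was the larger in 7 of 10 members and in 58.4% of all genes tested, and its median over all genes was 26.6%, beside 19.2% for the supernatant. In Gsr, Me1 and Prdx1 the share of the supernatant was the larger, and it reached 59.2% in Gsr, beside 21.1% for the replicate number. The highest of the 14 libraries was replicate 3 of 4OHT for 6 members (Hmox1, Gclm, Slc7a11, Txnrd1, Srxn1 and Me1) and replicate 3 of ctrl for 3 (Nqo1, Gclc and Gsr). Replicate 3 of 4OHT was also the library with the fewest counts, 7823051, and the part of depth in its levels was not tested.

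**Figure D3:**
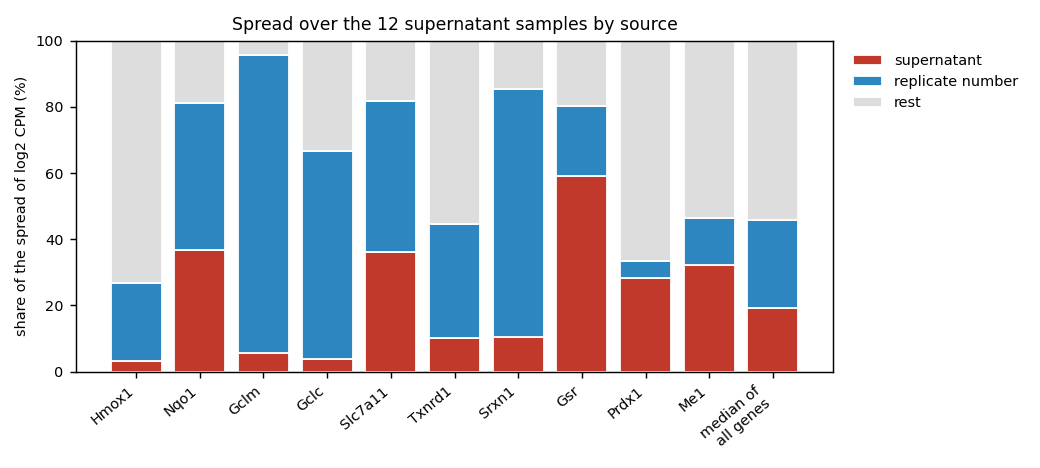
Share in percent (y axis) of the spread of log2 CPM over the 12 supernatant libraries that went with the supernatant, with the replicate number and with neither, for each gene (x axis) and as the median of all genes tested. Gclm stands at 90.0% for the replicate number and Gsr at 59.2% for the supernatant.

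With Ferrostatin-1 present, 0 of 10 members passed in 4OHT+Fer1 against ctrl (0.0311% of all genes passed edgeR's test). At an unadjusted p of 0.05 only Gsr passed, against 4.31% of all genes, and DESeq2 called Gsr, against 0.14% of all genes. The median of the members was −0.20 and 9 of 10 were negative, where 45.9% of all genes were. In 4OHT+Fer1 against Fer1, 0 of 10 passed as well (0.0233% of all genes), with Gsr alone past an unadjusted p of 0.05 (2.07% of all genes) at −0.96 (SE 0.31, adjusted p = 1.0 by edgeR). All 10 members were negative in that comparison, with a median of −0.20, where 48.2% of all genes were negative. These comparisons share the 4OHT+Fer1 libraries.

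Ferrostatin-1 was also given by itself. In Fer1 against ctrl 0 of 10 members passed edgeR's test and 0 passed an unadjusted p of 0.05, where 0.0% and 1.14% of all genes passed, and DESeq2 called 0 members and 0.0233% of all genes. The estimates lay between −0.38 for Gsr and 0.21 for Hmox1. The test of whether the difference of 4OHT depended on Ferrostatin-1, (4OHT − ctrl) − (4OHT+Fer1 − Fer1), passed for 0 of 10 members (0.0311% of all genes). Nqo1 (1.82, SE 0.75, adjusted p = 0.754 by edgeR) and Gsr (1.09, SE 0.43, adjusted p = 0.743) were past an unadjusted p of 0.05, against 6.20% of all genes.

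No member passed edgeR's test in fresh medium either. In medium against ctrl all 10 estimates were negative, where 49.2% of all genes were, with a median of −0.35, and 0 of 10 passed, against 10.9% of all genes. Medium has no replicate 3. Within replicates 1 and 2, Gsr was higher in medium in both, by 0.34 and 0.01 on the log2 CPM scale. Nqo1, Gclc, Slc7a11 and Srxn1 were higher in 1 of 2, and Hmox1, Gclm, Txnrd1, Prdx1 and Me1 were lower in both. Me1 had the largest difference, −0.98 (SE 0.30, adjusted p = 0.056 by edgeR), lower in 2 of 2 replicates, and it and Gclm (−0.52, SE 0.23, adjusted p = 0.176) were past an unadjusted p of 0.05, against 24.0% of all genes. DESeq2 called Me1 with an adjusted p of 0.0293, where it called 13.6% of all genes. When only the medium and ctrl libraries were fitted, Me1, Gclm and Txnrd1 passed, as did 20.5% of all genes, and Nqo1 and Gsr turned positive, at 0.22 and 0.14. In 4OHT against medium all 10 estimates were positive, where 51.5% of all genes were, with a median of 0.43, beside 0.013 over all genes. Of the 10, 0 passed edgeR's test, against 4.26% of all genes. Gclm alone was past an unadjusted p of 0.05 (0.66, SE 0.23, adjusted p = 0.147), against 15.8% of all genes. Medium has 2 libraries, and both comparisons rest on them. In medium against ctrl 4 of 7 tested fibroblast markers were higher (Col1a1, Col1a2, Tagln and Acta2), with a median of 1.22 over the 7. The 12 fibroblast markers summed to between 54.4 and 180.6 CPM in medium and between 28.0 and 71.7 CPM in ctrl, with Thy1 and Lum at 0 in every library of both groups. Of the 8 macrophage markers 3 were higher in medium (Adgre1, Mertk and Fcgr1), with a median of 0.54, and they summed to between 27509.1 and 34356.8 CPM in medium and between 18862.8 and 27761.0 CPM in ctrl. The part of these shifts in the members' differences was not tested.

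In the test of any difference among the 5 groups 0 of 10 members passed, against 7.10% of all genes. Gsr came nearest, with an adjusted p of 0.0655 by edgeR, and it and Slc7a11 (adjusted p = 0.271) were past an unadjusted p of 0.05, against 18.1% of all genes. DESeq2 called Gsr, against 12.6% of all genes.

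The regulators of NRF2 were measured in the same libraries. Nfe2l2 itself had 392.5, 465.3 and 494.9 CPM in ctrl and 438.5, 550.3 and 383.4 CPM in 4OHT, a fitted difference of 0.01 (SE 0.14, interval −0.31 to 0.32). Against 4OHT+Fer1, with 368.9, 378.2 and 336.5 CPM, it differed by 0.33 (SE 0.14, adjusted p = 0.386 by edgeR). The mRNA level does not report NRF2 protein, which is controlled by degradation. In 4OHT against ctrl Keap1 differed by −0.13 (SE 0.19, adjusted p = 0.889) and Bach1 by 0.11 (SE 0.17, adjusted p = 0.896). Of 9 regulators tested, 0 passed in either comparison of 4OHT with another supernatant.

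Of 121 further genes in 10 lists, among them glutathione, thioredoxin, NADPH supply, haem and iron, detoxification and heat shock, 111 were tested. Compared with ctrl, 1 of these was higher in 4OHT and 0 were lower, so that 0.901% of those tested passed, against 1.49% of all genes. It was Ncf4, a cytosolic subunit of the phagocyte NADPH oxidase, which makes superoxide, with 87.7, 76.7 and 105.5 CPM in ctrl and 152.5, 130.8 and 164.1 CPM in 4OHT. All 4OHT libraries were above all ctrl libraries, at a log2 fold change of 0.74 (SE 0.16, adjusted p = 0.045 by edgeR). These groups did not overlap in 11.0% of all genes. Without the replicate number in the model the adjusted p of Ncf4 was 0.327, and its call was lost when any single library of either group except replicate 3 of 4OHT was left out (adjusted p between 0.0906 and 0.236). In medium Ncf4 had 155.6 and 143.1 CPM. In 4OHT against 4OHT+Fer1 1 gene was higher and 0 were lower, again 0.901% of those tested, against 1.35% of all genes. It was Slc40a1, ferroportin, the iron exporter, with 107.8, 163.8 and 218.6 CPM in 4OHT and 44.0, 57.8 and 100.6 CPM in 4OHT+Fer1, at 1.31 (SE 0.21, adjusted p = 0.0132 by edgeR; 0.488 without the replicate number). Leaving out replicate 1 or 2 of 4OHT, or replicate 2 or 3 of 4OHT+Fer1, put it between 0.0646 and 0.0722, and leaving out replicate 1 or 2 of every group put it at 0.279 and 0.385. In ctrl Slc40a1 had 47.3, 70.1 and 186.3 CPM, and 4OHT differed from ctrl by 0.85 (SE 0.20, adjusted p = 0.0666 by edgeR). It passed there with DESeq2 (0.00641), without the filter on low counts (0.025) and without replicate 3 of every group, of ctrl or of 4OHT (0.00598 to 0.0459), and had an adjusted p of 0.939 without the replicate number. Slc40a1 was also higher in medium than in ctrl, at 0.80 (SE 0.23, adjusted p = 0.0469 by edgeR; 0.865 without the replicate number, 0.278 without replicate 1 and 0.625 without replicate 2).

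**Figure D4:**
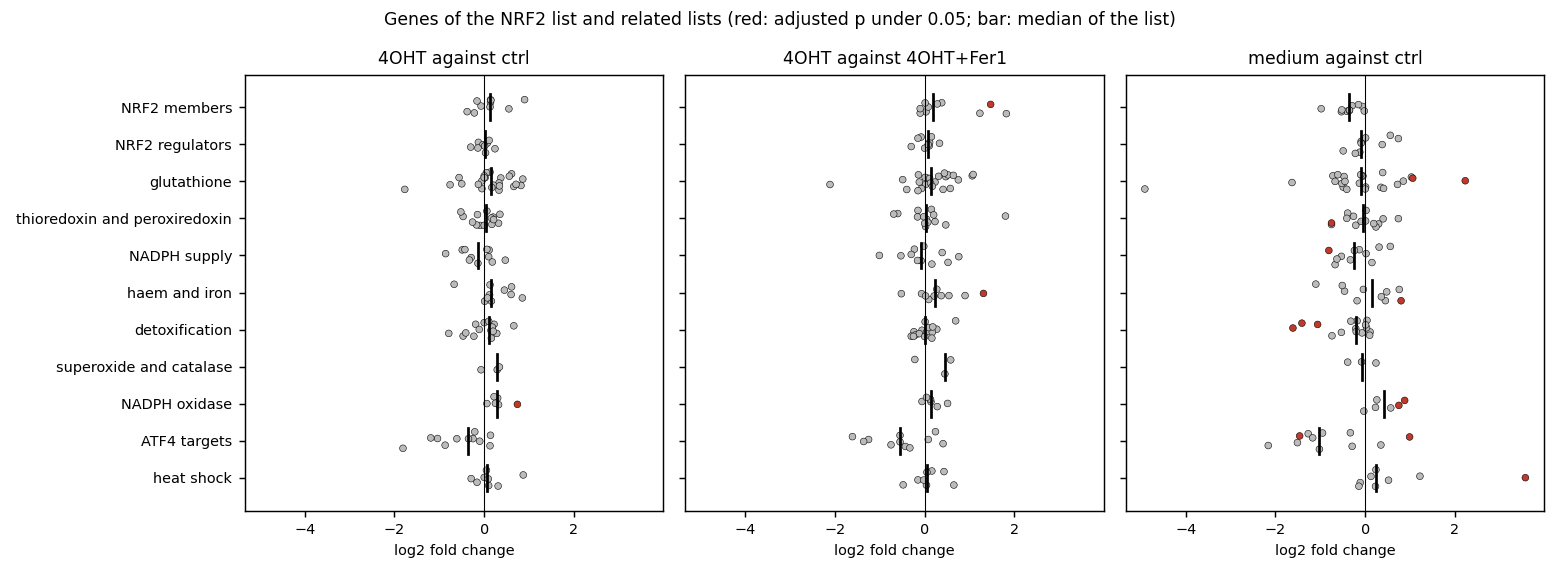
Log2 fold change (x axis) of each tested gene of the 10 NRF2 targets and 10 related lists (rows) in 3 comparisons, with a bar for the median of each list and red for an adjusted p under 0.05. Ncf4, at 0.74, is the only red point in 4OHT against ctrl, Gsr and Slc40a1 are those in 4OHT against 4OHT+Fer1, and medium against ctrl has 13.

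The members varied among themselves over the libraries. With the mean of each replicate number removed, 13 of 45 pairs of members had a Pearson r above 0.5 over the 14 libraries and 12 were below 0, with a median of 0.24. These are 28.9% and 26.7% of the member pairs, beside 12.4% and 50.2% of all pairs of tested genes, as a description without a test. Hmox1, Gclc and Txnrd1 went together, with r between 0.81 and 0.90, and so did Nqo1, Gsr and Slc7a11, with r between 0.55 and 0.73. Nqo1 and Txnrd1 had an r of −0.32. The gene most like each member by this measure was Dhrs9 for Hmox1 (r = 0.91), Ak8 for Nqo1 (0.91), Tmem65 for Gclm (0.91), Ccny for Gclc (0.96) and Edil3 for Slc7a11 (0.90). It was Eif5 for Txnrd1 (0.97), Slc12a2 for Srxn1 (0.83), Bambi for Gsr (0.97), Vdac1 for Prdx1 (0.88) and Rbpj for Me1 (0.91). Each r is the largest among the tested genes over 14 libraries, a choice that favours high values. The same measure was not computed for other genes, so these names are a description without a test.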

How the data were processed

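QuantSeq 3′ libraries of 14 pBMDM samples were used. Per the labels and the study's methods, the authors aligned reads with STAR 2.7.10a, ran Salmon 1.5.2 through nf-core and deposited the expected counts of each gene, not normalized. The paper names a human genome, while the identifiers are those of mouse genes. A table of the authors' own comparisons (log2 fold changes, p-values, CPM) was not used.

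Expected counts were rounded (30109 values were not whole), filtered with filterByExpr (minimum count 10) and given TMM factors. The quasi-likelihood test of edgeR 4.0.16 was run in R 4.3.3, with group and replicate number in 1 model of all 14 samples and Benjamini-Hochberg adjustment over 12851 genes. A gene passed at an adjusted p under 0.05. The study's design includes the mouse, and the replicate number was assumed to be the mouse. Deviations from the group mean correlated at a median of 0.247 over 26 pairs of libraries with the same number, of which 21 were over 0.1, and at −0.139 over 52 other pairs. Deviations sum to 0 within a group, so these 2 medians are not independent. They cannot tell the mouse from another source shared by libraries of the same number. If replicates were not separate mice, p-values measure only the spread between these samples. Log2 CPM used a prior count of 2. Scripts were tested on simulated data. Alternatives were no replicate block, DESeq2 1.42.0, other scaling, other filters, only the groups compared, an added fold threshold and replicates left out. Leaving out single libraries was added after seeing the data.

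The members and lists were chosen with earlier results of these data known. Named genes were the 10 members, genes of the lists that passed when 4OHT was compared with ctrl or 4OHT+Fer1, Nfe2l2, Keap1, Bach1, and the tested gene most like each member, predicted genes left out. Coordinates are those of the GRCm38 annotation.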

Additional observations from a re-analysis of the deposited data

How the results depend on the processing

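The number of members passing in 4OHT against ctrl was 0 in every alternative. The number of all genes passing, 192 there and 174 in 4OHT against 4OHT+Fer1, was 7 and 20 without the replicate block, 418 and 399 with DESeq2, 325 and 285 without the filter, 0 and 37 with only the groups compared, and 0 to 259 and 0 to 469 with a replicate or library left out. In medium against ctrl it was 1396, and 523 to 2488 over the alternatives that kept all replicates. Gsr, the member that passed in 4OHT against 4OHT+Fer1, kept its sign there in every alternative. In 4OHT against 4OHT+Fer1 the number of members, 1, became 0 without the replicate block, 0 with only the groups compared, 2 with DESeq2, 2 without the filter on low counts, and 0 to 2 when a replicate or library was left out. Nqo1 was the second, at an adjusted p of 0.0291, 0.0377 and, without replicate 3 of 4OHT, 0.0408. DESeq2 gave 1 member in 4OHT+Fer1 against ctrl, 1 in medium against ctrl and 1 among the 5 groups. It called 0.14%, 13.6% and 12.6% of all genes there. With only the groups compared there were 3 in medium against ctrl, where 2488 of 12124 genes passed. There was 1, Nqo1, in 4OHT against medium, where 1470 of 12149 genes passed. Without the filter there was 1 among the 5 groups, where 1209 of 22388 genes passed. Leaving out replicates gave 0 to 1 in medium against ctrl and 0 to 1 among the 5 groups. Ncf4 in 4OHT against ctrl also passed with DESeq2, other scaling and the other filters, and lost its call with only the groups compared and with each replicate or library left out except replicate 3 of 4OHT. Estimates near 0 turned sign, for which the cause was not tested: Nqo1 in Fer1 against ctrl was −0.32 without the replicate block, Nqo1 and Gsr in medium against ctrl were 0.22 and 0.14 with only the groups compared, and Nfe2l2 in 4OHT against ctrl was −0.01 without the filter. With replicates or libraries left out, more turned. In 4OHT against ctrl the ranges were −0.38 to 0.36 for Hmox1, 0.0 to 0.29 for Gclm, −0.31 to 0.06 for Gclc, 0.0 to 0.30 for Srxn1, −0.23 to 0.67 for Gsr, −0.16 to 0.05 for Prdx1, −0.11 to 0.19 for Nfe2l2, −0.34 to 0.07 for Keap1, −0.04 to 0.38 for Bach1. In 4OHT against 4OHT+Fer1 the ranges were −0.55 to 0.47 for Hmox1, −0.21 to 0.24 for Gclc, −0.43 to 0.17 for Txnrd1, −0.04 to 0.33 for Prdx1, −0.43 to 0.17 for Me1. In 4OHT+Fer1 against ctrl the ranges were −0.18 to 0.35 for Hmox1, −0.42 to 0.09 for Gclc, −0.28 to 0.0 for Txnrd1. In Fer1 against ctrl the ranges were −0.32 to 0.81 for Nqo1, −0.12 to 0.07 for Gclm, −0.30 to 0.14 for Gclc, −0.25 to 0.04 for Txnrd1, −0.11 to 0.01 for Srxn1, −0.22 to 0.04 for Me1. In 4OHT+Fer1 against Fer1 the ranges were −0.33 to 0.03 for Hmox1, −0.22 to 0.09 for Gclc, −0.17 to 0.12 for Txnrd1. In medium against ctrl the ranges were −1.55 to 0.32 for Nqo1, −0.35 to 0.20 for Slc7a11, −0.17 to 0.11 for Srxn1, −0.37 to 0.16 for Gsr. In 4OHT against medium the ranges were −0.02 to 0.59 for Gclc. In the test of dependence on Ferrostatin-1 the ranges were −0.12 to 0.63 for Hmox1, −0.26 to 0.04 for Gclc, −0.38 to 0.06 for Txnrd1. Slc7a11 could not be fitted at a minimum count of 50. With 2 medium libraries, leaving out replicate 1 or 2 left 1, assumed to vary like the other groups.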

Other observations

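Fresh medium differed from ctrl supernatant in 13 of the 111 tested genes of the related lists, 7 higher and 6 lower, or 11.7%, near the 10.9% of all genes that passed edgeR's test. The genes named here were chosen after their values were seen. Among detoxification genes, Ptgr1, which reduces prostaglandins and reactive alkenals, had 21.3 and 18.6 CPM in medium and 49.5, 51.4 and 42.8 CPM in ctrl, a log2 fold change of −1.41 (SE 0.20, adjusted p = 0.000679 by edgeR). Nqo2, a quinone reductase, had 27.2 and 23.4 CPM in medium and 51.2, 47.5 and 42.7 CPM in ctrl (−1.06, SE 0.18, adjusted p = 0.00215), and its adjusted p was 0.0738 without the replicate number. The medium libraries of both genes lay below every ctrl library, and the share of all genes that separate in this way was not computed. Leaving out replicate 2 left 1 medium library and ended the call of Ptgr1, at a log2 fold change of −1.30. The call of Nqo2 ended when replicate 1 or replicate 2 was left out, at −1.20 and −1.03.

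Catalase (Cat), which breaks down hydrogen peroxide, was higher in 4OHT than in medium, with 522.0, 518.4 and 753.0 CPM against 269.0 and 354.0 CPM (0.73, adjusted p = 0.0327 by edgeR; 0.246 without the replicate number). Ptgr1 and Cbr1, a carbonyl reductase, also passed in that comparison, and the 3 were 2.7% of the genes tested in these lists, against 4.26% of all genes. Without the replicate number the adjusted p was 0.222 for Ptgr1 and 0.0888 for Cbr1, and that of Cbr1 was 0.0561 without the filter on low counts. Leaving out replicate 1 or 2 left 1 medium library and ended the calls of Cat, Ptgr1 and Cbr1. The log2 fold changes were then 0.57 and 0.89 for Cat, 1.11 and 0.74 for Ptgr1, and 0.76 and 0.69 for Cbr1.

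The list of ATF4 targets, genes of amino acid supply and stress, lay at a median log2 difference of −0.35 between 4OHT and ctrl, −0.55 between 4OHT and 4OHT+Fer1 and −1.02 between medium and ctrl, with 11 genes tested, where the medians over all genes were 0.006, 0.005 and 0.008. In the 2 comparisons of 4OHT 0 of 11 passed, against 1.49% and 1.35% of all genes, and 5 and 7 were past an unadjusted p of 0.05, against 10.8% and 11.8% of all genes. The 2 comparisons share the 4OHT libraries and the 2 with ctrl share the ctrl libraries. In medium against ctrl Atf3 passed as higher and Psat1 as lower. Asns, Atf3, Atf4 and Trib3 were below ctrl in replicates 1 and 2 of 4OHT. In replicate 3 these genes lay above ctrl, with Asns at 8.61 CPM beside 5.85 in ctrl and Atf4 at 192.5 beside 154.6. Nupr1, Phgdh, Psat1 and Slc7a5 were below ctrl in every replicate of 4OHT, and Ddit4 and Vldlr went both ways. The name Ddit3, also in this list, has duplicate entries among the deposited genes, and its levels are not given here. Whether the medians hold without the replicate number or with a replicate left out was not tested.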
